A study of Arabidopsis thaliana with 4 samples.

Results

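Plants harvest light with photosystem I and photosystem II, pigment-protein complexes of the chloroplast thylakoid membrane. The reaction centre cores are largely encoded in the chloroplast genome, while the antenna proteins (LHCA for photosystem I, LHCB for photosystem II), the oxygen-evolving proteins and many small subunits are encoded in the nucleus. These nuclear genes are among the most strongly transcribed in green seedlings and are activated by light through regulators such as the GLK factors and HY5. The genes described here are the 45 nuclear protein-coding genes, of 27444 in all, that carry a symbol or synonym starting with LHCA, LHCB, PSA or PSB and encode a photosystem subunit or an antenna protein. Such a name was found at 63 nuclear genes. The other 18 were set aside: 15 encode assembly factors, NDH complex subunits or related proteins, and 3 encode transferases unrelated to photosynthesis. A further 20 genes with such names lie in the chloroplast genome and are outside the selection.

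The members were compared with a map of SMXL6, a repressor of strigolactone signalling, obtained by chromatin immunoprecipitation and sequencing with an anti-HA antibody. Whole seedlings of Arabidopsis thaliana aged 2 weeks, grown with 16 h of light and 8 h of darkness at 21 °C, were used. In 2 libraries the seedlings were smxl6/7/8 triple mutants carrying pSMXL6:SMXL6-HA, that is, an HA-tagged SMXL6 driven by the SMXL6 promoter, and in 2 control libraries they were smxl6/7/8 mutants without the transgene, so that both groups lack native SMXL6, SMXL7 and SMXL8. Whether replicates were grown separately, and how many transgenic lines were used, is not stated in the labels, so agreement between the lists may be technical. Whole seedlings mix green and non-green cells, so a site occupied in few cells cannot be told apart from one occupied weakly in many.

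The authors called peaks for each replicate pair, which gave list 1 with 1789 peaks and list 2 with 1442. The score of a peak is the authors' own value, and ranks count from the highest score within a list. Read depth is unknown, so absence of a peak says only that none was called at this depth. The files hold no expression values, so the labelled tissue could not be checked against marker genes. A gene was counted as having a peak if a peak overlapped the window from 1000 bp outside to 200 bp inside either of its ends. It was counted in both lists if each list had such a peak, at the same end or not. The peaks of the lists did not have to overlap each other. Below and above refer to lower and higher chromosome coordinates, since gene strand was not used here.

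The comparison asked which photosystem genes carry SMXL6-HA peaks in both replicates. Such peaks were found at 1 of the 45 genes (2.22%), LHCB4.3, against 5.04% of all nuclear protein-coding genes. In list 1 the count was 6 of 45 (13.3%), close to the 11.3% of all genes. In list 2 it was 1 of 45 (2.22%), against 6.68% of all genes. At the share of all genes, 45 genes would hold 5.07 with a list 1 peak, 3.01 with a list 2 peak and 2.27 with both. Each gene weighs 2.22 percentage points, and these differences were not tested. With scores of at least 100 the share of all genes with a peak in both lists was 2.16%, beside the members' 2.22%. With windows from 2000 bp it was 6.88%, beside 6.67%, so the gap in that count was not seen under these settings. The remaining 39 genes (86.7%) had no peak at either end in either list.

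LHCB4.3 (AT2G40100) encodes an isoform of CP29, a minor antenna protein that sits between the photosystem II core and its major antenna, and this isoform is known for expression under strong light. Its list 1 peak spanned chromosome 2, 16744928 to 16746971, with a score of 149.5, rank 451 of 1789. Its list 2 peak spanned 16745032 to 16746653, with a score of 392.49, rank 88 of 1442. The list 2 peak lay wholly within the list 1 peak. Both covered the lower end of the gene, reaching 700 bp and 596 bp below it and over 74.8% and 57.1% of its length, and left the higher end uncovered. The midpoints lay inside the gene, 321 bp and 214 bp from the lower end, and no other coding gene had an end nearer to them. The next coding gene below, AT2G40095, is 475 bp away, and both peaks also touched its window, while the list 1 peak touched that of AT2G40110 as well.

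The other LHCB4 genes differed from LHCB4.3 in their peaks. LHCB4.1 (AT5G01530), also a CP29 gene, had a list 1 peak at chromosome 5, 208401 to 212300, with a score of 113.05 (rank 672). That peak was 3900 bp wide, covered 100% of the gene and ran 1752 bp past its higher end. No list 2 peak overlapped it. The nearest list 2 peak, at 205672 to 206896 with a score of 93.02, lay 1970 bp below LHCB4.1 and had its midpoint nearest to an end of AIRP2. LHCB4.2 (AT3G08940) was 275 kb from the nearest list 1 peak and 65.7 kb from the nearest list 2 peak. The 3 CP29 genes thus had a peak in both lists, in list 1 alone and in neither.

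**Figure D1:**
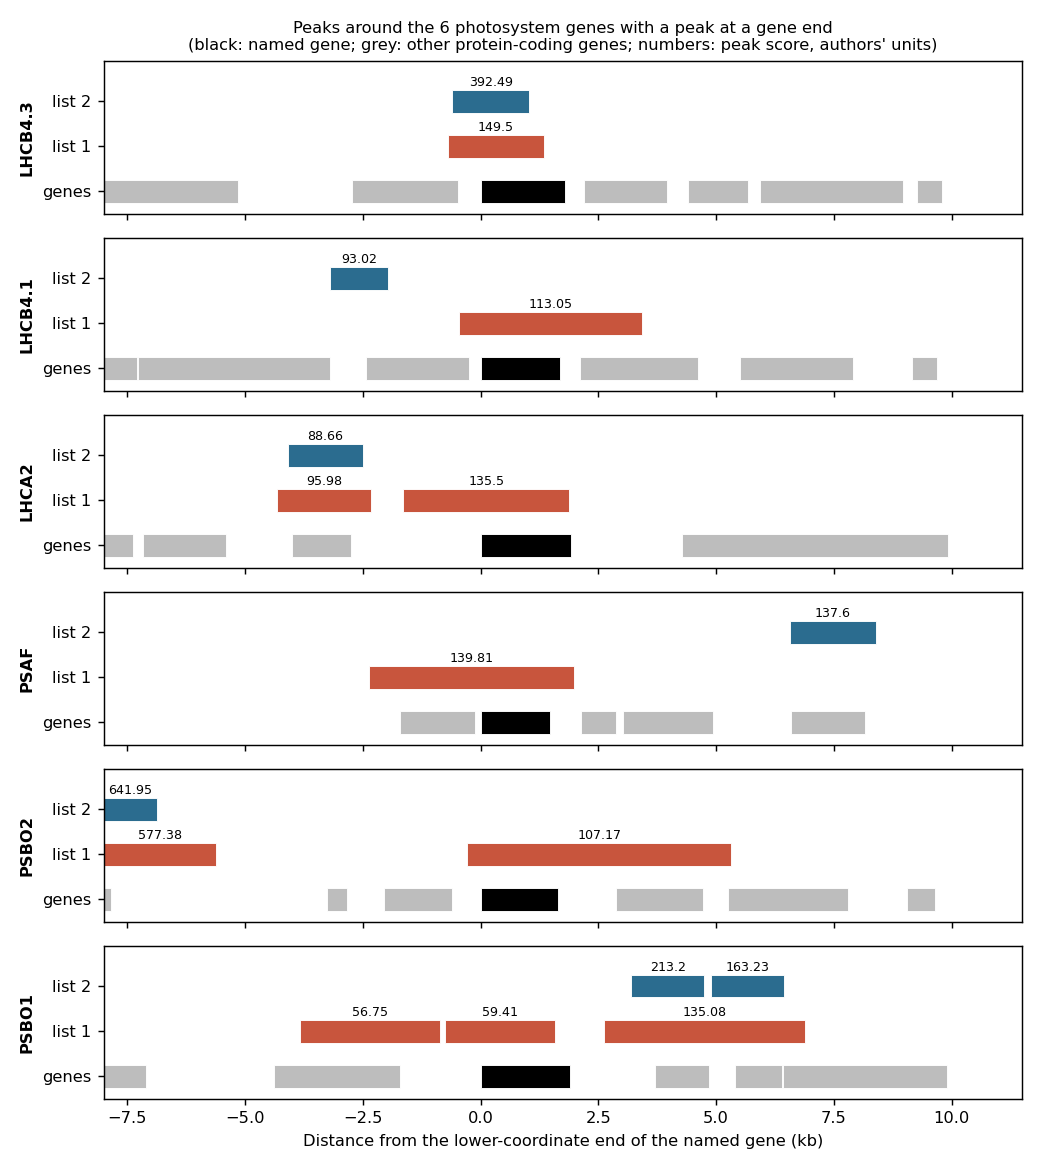
Peaks of list 1 and list 2 (coloured bars, with the authors' scores) around the 6 photosystem genes with a peak at a gene end, against the distance in kb from the lower end of the named gene (black); other coding genes are grey, and features are cut 8 kb from the gene. At LHCB4.3 the list 2 peak lies inside the list 1 peak, while list 1 peaks alone cover LHCB4.1, LHCA2, PSAF and PSBO2 and most of PSBO1.

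The remaining members with list 1 peaks belonged to the photosystem I antenna, photosystem I and the oxygen-evolving complex. LHCA2 (AT3G61470), an antenna gene of photosystem I, lay under a list 1 peak at chromosome 3, 22743876 to 22747397, with a score of 135.5 (rank 508). It covered 97.6% of the gene, and no other coding gene had a window at it. List 2 had its closest peak 2498 bp below LHCA2 (score 88.66), with a midpoint nearest to an end of BRH1. LHCA2 thus lay under a peak of its own in list 1 that had no counterpart in list 2.

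PSAF (AT1G31330) encodes the photosystem I subunit at which the electron carrier plastocyanin docks. Its list 1 peak, at chromosome 1, 11212316 to 11216667, had a score of 139.81 (rank 489) and covered 100% of the gene. The midpoint lay 185 bp below the gene and was nearest to an end of LBD4, the neighbouring gene, at 76 bp. In list 2 the nearest peak was 5092 bp away from PSAF. The list 1 peak therefore lay over both PSAF and LBD4, and the score cannot be divided between them.

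PSBO1 and PSBO2 encode the protein that stabilises the manganese cluster of the oxygen-evolving complex. PSBO2 (AT3G50820) lay wholly under a list 1 peak at chromosome 3, 18890596 to 18896184, with a score of 107.17 (rank 721). This peak was 5589 bp wide, the widest at any member, and its midpoint, 882 bp above PSBO2, was nearest to an end of COR413-PM2. PSBO1 (AT5G66570) had 3 list 1 peaks at its ends. The peak over the gene, at chromosome 5, 26567809 to 26570157, covered 83.9% of it and had a score of 59.41, rank 1484. The others lay 864 bp below (score 56.75) and 741 bp above (score 135.08) and were nearest to AT5G66560 and AT5G66580. The peak above PSBO1 overlapped 2 list 2 peaks, the nearer with a score of 213.2 and 1306 bp from PSBO1, while the peak over PSBO1 overlapped none.

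At least 90% of the gene lay under list 1 peaks at 4 of 45 members (8.89%), LHCA2, LHCB4.1, PSAF and PSBO2, against 3.12% of all genes. Members were shorter than most genes, with a median of 1367 bp against 2078 bp over all genes. Among the 19074 genes with lengths in the members' range, 720 to 3207 bp, the share was 3.77%. Within this range genes were not matched to the members' lengths, so the part of gene length was not tested. None of the 4 had a list 2 peak at either end, whereas 52.7% of the 855 genes covered in this way did. Of the 6 members with a list 1 peak 1 (16.7%) also had a list 2 peak, and of all 3089 genes with a list 1 peak 44.8% did. These counts rest on 4 and 6 genes, depend on the window and were not tested. With windows from 2000 bp, LHCB4.1 and PSBO1 also had a list 2 peak. At that setting 6.67% of members had a peak in both lists and 13.3% in list 1, against 6.88% and 13.9% of all genes.

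The 8 list 1 peaks at members had scores from 56.75 to 149.5, with a median of 124.1 against 92.0 over all list 1 peaks, and 2 of the 8 overlapped a list 2 peak. Of the 1127 list 1 peaks in the same range of scores, 48.3% overlapped one, and of all list 1 peaks 54.9%. The 8 peaks at members had a median width of 3711 bp, against 2824 bp in list 1 as a whole. They were picked for reaching a gene end, which a wide peak does more readily, whereas list 1 as a whole was not. Of the 696 list 1 peaks that covered at least 90% of some gene, 55.2% overlapped a list 2 peak. The part of peak width in the members' overlap was not tested.

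The major antenna genes, whose LHCB1, LHCB2 and LHCB3 products form the trimers that carry most of the light-harvesting chlorophyll, had no peak at any of 9 genes in either list. At the share of all genes, 9 genes would hold 1.01 with a list 1 peak and 0.601 with a list 2 peak, so this count is near the background. LHCB1.1, LHCB1.2 and LHCB1.3 stand side by side on chromosome 1, with gaps of 1.15 kb and 1.92 kb, so they are not independent observations. Their nearest peaks were 23.9 kb to 29.5 kb away in list 1 and 41.6 kb to 47.2 kb in list 2. LHCB1.4 and LHCB1.5, a neighbouring pair on chromosome 2, were 63.1 kb and 65.5 kb from the nearest list 1 peak and 20.3 kb and 22.6 kb from the nearest list 2 peak. LHCB2.1 was 444 kb from a list 1 peak and 392 kb from a list 2 peak, and its neighbour LHCB2.2 was 468 kb and 416 kb away. For LHCB2.3 the distances were 45.9 kb and 46.2 kb, and for LHCB3 they were 37.3 kb and 14.2 kb. The median distance over the 9 genes was 45.9 kb in list 1 and 44.8 kb in list 2, against 21.2 kb and 29.0 kb over all genes. No major antenna gene lay within 10 kb of a peak in either list, while 32.0% and 25.0% of all genes did. With so few separate loci, these differences were not tested.

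Of the other minor antenna genes, LHCB5, the gene for CP26, was 129 kb from a list 1 peak and 162 kb from a list 2 peak, and LHCB7 was 7.45 kb and 15.6 kb away. LHCB6, the gene for CP24, had no peak at its ends, but a high-scoring list 2 peak lay 2073 bp below it at chromosome 1, 5441722 to 5444389. Its score was 398.44, rank 86 of list 2, no list 1 peak overlapped it, and its midpoint was nearest to an end of AT1G15800. Among the LHCA genes, LHCA1, LHCA4 and LHCA6 were 5.03 kb, 13.7 kb and 5.93 kb from the nearest list 1 peak and 5.25 kb, 6.17 kb and 6.36 kb from the nearest list 2 peak. LHCA3 was 20.2 kb and 65.0 kb away. LHCA5, a gene for a minor antenna protein that links photosystem I to the NDH complex, was 1001 kb and 107 kb away.

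Photosystem I subunit genes other than PSAF had no peak at their ends at any of 11 genes. The 12 PSA genes would hold 1.35 with a list 1 peak and 0.802 with a list 2 peak at the share of all genes, near the 1 and 0 found. PSAK, for a subunit on the side where antenna proteins attach, came closest, with a list 1 peak 2273 bp below it (score 94.12, rank 865) whose midpoint was nearest to an end of ERD4. PSAG was 10.2 kb and 11.2 kb from peaks of list 1 and list 2. The other 9, the genes PSAD-1 and PSAD-2, PSAE-1 and PSAE-2, PSAH-1 and PSAH2, PSAL, PSAN and PSAO, were at least 30.9 kb from any peak. The paralogous pairs for subunits D, E and H, the first pair at the ferredoxin docking site, were alike in having none. Over the 12 PSA genes the median distance was 50.1 kb in list 1 and 90.2 kb in list 2. The medians over all genes were 21.2 kb and 29.0 kb, and the differences were not tested.

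Photosystem II subunit genes other than PSBO1 and PSBO2 had no peak at their ends at any of 10 genes. For the 12 PSB genes the counts of 2 in list 1 and 0 in list 2 stand beside the same 1.35 and 0.802, and are likewise near the background. They include the oxygen-evolving genes PSBP-1 and PSBP-2, at 72.5 kb and 72.6 kb in list 1 and 33.5 kb and 72.9 kb in list 2, and PSBQ-1 and PSBQ-2, at 28.0 kb and 8.34 kb in list 1 and 28.4 kb and 8.60 kb in list 2. PSBS, the gene for the protein that triggers energy dissipation in excess light, was farthest of all members from a list 1 peak, at 1309 kb, and was 414 kb from a list 2 peak. PSBR, for a protein that helps to anchor the oxygen-evolving proteins, had a list 1 peak 3661 bp above it (score 82.79, rank 1031), which was nearest to an end of AT1G79060. PSBW and PSBTN lay within 10 kb of a list 2 peak, at 9.64 kb and 7.57 kb, whereas PSBX and PSBY lay 370 kb and 68.5 kb from one.

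**Figure D2:**
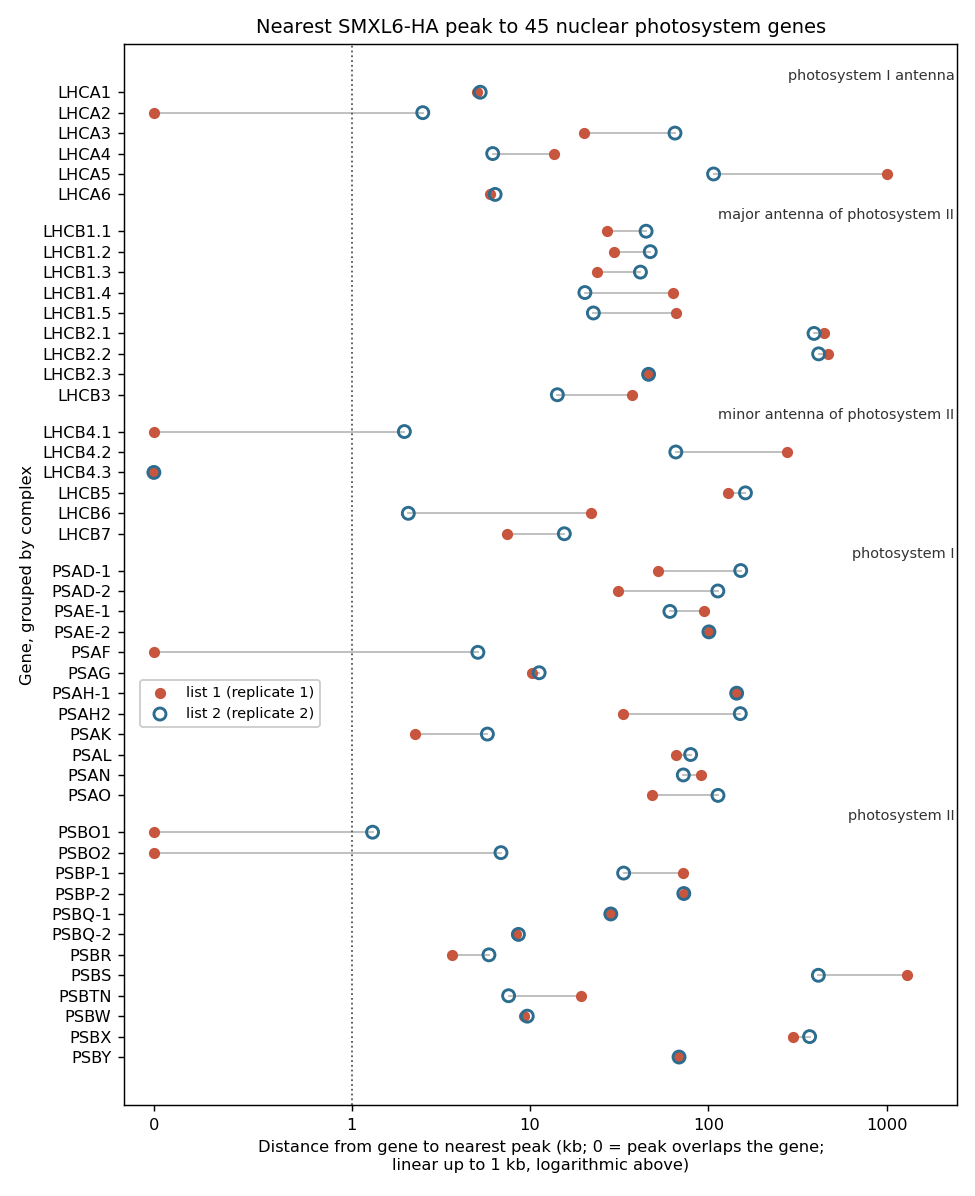
Distance in kb from each of the 45 genes to its nearest peak in list 1 (filled) and list 2 (open), grouped by complex, with an axis that is linear up to 1 kb (dotted line) and logarithmic above. LHCB4.3 alone is overlapped in both lists, and LHCA2, LHCB4.1, PSAF, PSBO1 and PSBO2 are overlapped in list 1 alone.

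The median member was 30.9 kb from a list 1 peak and 41.6 kb from a list 2 peak, against 21.2 kb and 29.0 kb over all genes. A list 1 peak overlapped 13.3% of members against 8.585% of all genes, and a list 2 peak 2.22% against 4.588%. Within 10 kb of a peak lay 28.9% of members in list 1 and 33.3% in list 2, against 32.0% and 25.0% of all genes. Within 50 kb the shares were 60.0% and 57.8%, against 74.5% and 65.9%. Members that are neighbours share a nearest peak, and these differences were not tested. Members also stand closer to other genes, with a median of 186.5 bp to the next coding gene on either side against 649 bp over all genes, so a peak between genes is less easily assigned to a member alone.

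**Figure D3:**
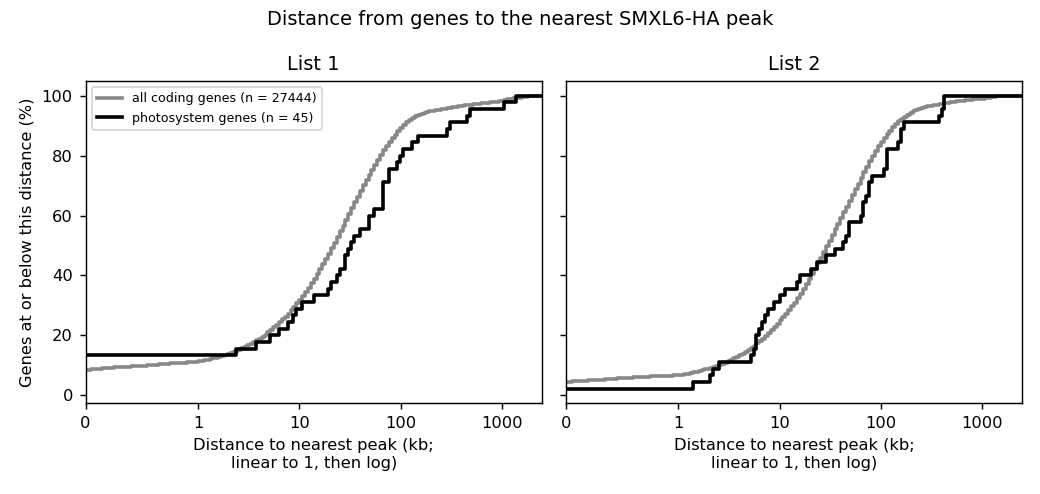
Cumulative share of genes (%) at or below a given distance (kb) from the nearest peak of list 1 (left) and list 2 (right), for the 45 photosystem genes (black) and all 27444 nuclear coding genes (grey). At distance 0 the members start at 13.3% in list 1, above the grey line, and at 2.22% in list 2, under it, and at 50 kb they stand at 60.0% and 57.8%, under both grey lines.

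Genes with related names or roles were then set beside the members. Among the 15 genes with a fitting name but another product, 4 had a list 1 peak, 2 a list 2 peak and 2 both, beside 11.3%, 6.68% and 5.04% of all genes. The pair with both were PSB33, for a protein associated with photosystem II (115.23 and 132.78), and CURT1B, listed as a photosystem I subunit but known for bending thylakoids (63.5 and 213.13). The peaks of PSB33 were nearest to an end of AT1G71520, and those of CURT1B also lay at CCA1, a core clock gene. PSB27, for a repair factor of photosystem II, had a list 1 peak alone (135.41), as had PnsL3, for an NDH complex subunit (82.14).

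Other photosynthesis genes had peaks in both lists at 14 of 103 genes (13.6%), and regulators accounted for 6 of the 14. Of the 20 regulators of photosynthesis genes 6 (30.0%) had a peak in both lists, against 5.04% of all genes. Those with the best mean rank were PIF5 and LHY, then PIF4 (120.05 and 119.33), which encodes a growth-promoting factor bound by phytochrome, and SIGD (146.33 and 95.47), for a sigma factor of the chloroplast RNA polymerase, whose list 1 peak was nearest to an end of ZIF1. All lists were chosen with earlier results of these data known, and PIF5 and LHY were put on this list with their peaks already known. Neither its share nor that of the 103 genes is therefore an independent result. Light-harvesting-like and photoprotective genes had 2 of 12, ELIP1 and ABA1. ELIP1, a light-induced relative of the LHC genes, had scores of 269.5 (rank 164) and 1176.47 (rank 7), the latter the highest list 2 score of any gene in the 6 lists, and ABA1, for zeaxanthin epoxidase, had 85.39 and 53.78.

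Chlorophyll synthesis genes had peaks in both lists at 2 of 22, HEMF1 (206.17 and 151.4) and HEMA2 (112.51 and 64.82). The list 2 peak of HEMF1 was nearest to an end of NET3A, and both peaks of HEMA2 to an end of RAS1. The Calvin cycle list had 1 of 18, RBCS3B, for a small subunit of Rubisco (156.58 and 177.09). Electron carriers and ATP synthase had 1 of 12, FNR2, for a ferredoxin reductase (287.79 and 58.1), where the peaks were nearest to ends of TUB5 and AT1G20030. Assembly factors had 2 of 19, LPA2 (152.23 and 205.22) and PSB33. In each of these 4 lists the count was 1 or 2 genes, and their shares, from 5.56% to 10.5%, were not tested against those of the photosystem genes or of all genes.

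**Figure D4:**
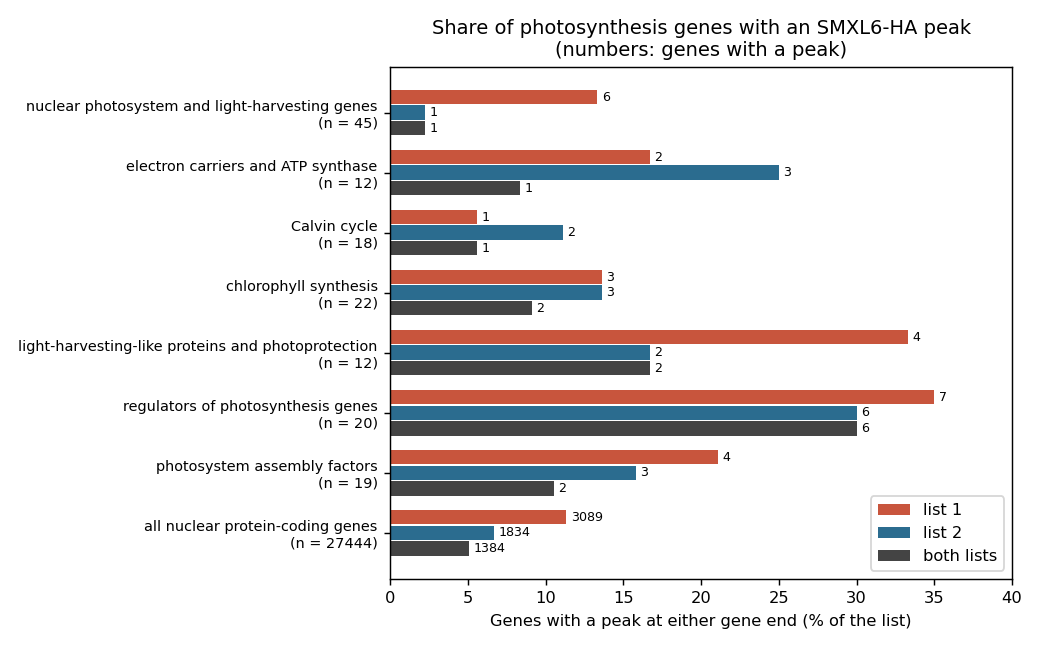
Share of genes (%) with a peak at either end in list 1, list 2 and both lists, for the photosystem genes, the 6 further photosynthesis lists and all nuclear coding genes, with the number of genes at each bar. For both lists the photosystem genes stand at 2.22%, all coding genes at 5.04% and the regulators at 30.0%. All lists were chosen with earlier results of these data known, and among the regulators PIF5 and LHY were listed with their peaks already known.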

How the data were processed

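The authors' deposited peak lists were used, 1 per replicate pair, each row with a chromosome, start, end, name and score. BWA 0.7.10-r789, SAMtools and MACS 1.4.2 with the build TAIR10 are named in the submitters' processing notes, while for settings, read depth and duplicate removal nothing is stated in the labels or files used here. In these lists the score is the authors' deposited value per peak, and its scale is not stated in the files. It was used only to describe, rank and filter peaks within a list. Starts were converted to count from 1.

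Genes came from the RefSeq table of the assembly TAIR10.1, whose nuclear sequences are those of TAIR10. It holds no strand or product, so products were assigned by hand from symbols and synonyms, and windows were set at both gene ends. Promoter sequences and motifs were not analysed here. Of the 103 symbols in 6 further lists, 103 were matched, 6 of them by locus code.

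The members and lists were chosen with earlier results of these data known, so no list was tested. Counts stand beside the same count over all 27444 nuclear protein-coding genes. All members with a peak were named, members without one by group, with peaks within 5000 bp given, and from each further list up to 4 genes with a peak in both lists, by mean rank. Genes under other observations were picked with their values in view. Python 3.11.15, NumPy 2.4.6, pandas 2.3.3 and matplotlib 3.10.9 were used, and the window code was tested on simulated data.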

Additional observations from a re-analysis of the deposited data

How the results depend on the processing

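No paired analysis was possible because each list was already called within a replicate pair and no test across libraries was made. The count in both lists stayed at 1, LHCB4.3, in 8 of 11 alternatives. The 11 do not include either list taken alone, which is no count in both lists. The 8 include leaving out scores under 50, which removed 1 list 2 peak and could hardly move the count. The share of all genes moved, however, to 2.16% with scores of at least 100 and 2.41% with 50% overlap between the lists, beside the members' 2.22%, so the gap to the 5.04% of all genes does not hold under these settings. The count was 0 with the peak midpoint required inside the window, in both lists and in list 2 alone, against 2.04% and 4.14% of all genes. The LHCB4.3 midpoints lie beyond 200 bp inside the gene. Windows from 2000 bp gave 3 genes in both lists and 3 in list 2, adding LHCB4.1 and PSBO1, against 6.88% and 8.94% of all genes. Adding the 15 related genes gave 3 of 60 in both lists, 3 in list 2 and 10 in list 1. These are 5.0%, 5.0% and 16.7%, against 5.04%, 6.68% and 11.3% of all genes. With a peak in a single list sufficing, leaving out a replicate gave from 1 (list 2 alone) to 6 (list 1 alone). The list 1 count was 4 with the nearest gene end, which drops PSAF and PSBO2, and 4 with midpoints in the window. Each is 8.89% of members, against 6.19% and 4.53% of all genes. The list 1 count stayed at 6 with scores of at least 100, where 5.34% of all genes had such a peak. PSBO1 stayed there only through the peak 741 bp above it (135.08), as the peak over the gene scored 59.41. The list 1 count was also 6 with list 1 peaks narrowed to the list 2 median width (7.80% of all genes). The window at the transcription start alone was not run, since gene strand was not used here. Unknown depth limits every statement on genes without a peak.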

Other observations

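Some further photosynthesis genes had a peak in 1 list alone. GLK1, which encodes an activator of antenna genes, had a list 1 score of 261.45 (rank 181) with a midpoint nearest to an end of AT2G20562, and no list 2 peak at its ends, while GLK2 had none in either list. Of the plastocyanin genes, DRT112 had a list 1 peak (145.42), nearest to an end of SMT2, and PETE1 a list 2 peak (82.63) nearest to its own end. FD2, the main leaf ferredoxin gene, had a list 2 peak alone (101.86), nearest to its own end. The state transition kinase gene STN7 (87.97) and the one-helix gene OHP2 (63.17) had list 1 peaks alone, nearest to their own ends.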
